A study of Homo sapiens with 8 samples.

Results

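The phosphatidylinositol transfer proteins were followed as 6 genes chosen by name, PITPNC1, PITPNA, PITPNB, PITPNM1, PITPNM2 and PITPNM3, out of 22027 genes named by a probe on either array platform. All probes annotated to them were taken, 22 in all, 7 on the Illumina bead arrays and 15 on the Affymetrix arrays. LM2, a highly metastatic derivative of the human breast cancer line MDA-MB-231, was set against the poorly metastatic MDA-MB-231 itself on the Illumina arrays. On the Affymetrix arrays, LM2 with over-expressed miR-126, a microRNA, was set against LM2 control cells. Each group had 2 arrays of total RNA, called A and B after the titles, and all cells were grown in DMEM with serum. LM2 was made by selection from MDA-MB-231, and the 8 samples come from these related lines alone. The labels do not state the vector behind the over-expression, what the control cells carried, what the letters tr in the Illumina titles stand for, or whether arrays A and B came from separate cultures. The p-values therefore measure only the spread between these arrays, which may be technical. The platforms share no sample, so levels were not compared between them. Only the likeness to PITPNC1 at the end draws on both, with levels centred within each table.

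Phosphatidylinositol transfer proteins carry single phosphatidylinositol molecules between membranes and so supply the lipid kinases that make phosphoinositides. PITPNA and PITPNB are small soluble proteins that exchange phosphatidylinositol for phosphatidylcholine, and PITPNB is known for its place at the Golgi. PITPNM1 and PITPNM2 are large membrane-associated members. PITPNM1 works at contacts between the endoplasmic reticulum and the plasma membrane, where it brings phosphatidylinositol in and takes phosphatidic acid back after phospholipase C has acted. PITPNM3 is related to these but lacks the lipid transfer domain. PITPNC1 is a small member that binds phosphatidylinositol and phosphatidic acid. In metastatic cancer cells it is known for drawing RAB1B and GOLPH3 into vesicle release from the Golgi, and work on LM2 cells has described it as a target of miR-126, so PITPNC1 is not an independent choice here.

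A microRNA pairs with transcripts mainly through its seed, bases 2 to 8 from the 5′ end. The mature arms of miR-126, over-expressed in one of the groups, are shown so that the tested agent can be read. They lie in GRCh38.p14 at chr9:136670653-136670674 for the 3p arm and chr9:136670616-136670636 for the 5p arm, on the plus strand, in the MIR126 gene that an intron of EGFL7 holds. Sequences are from RefSeq, written 5′ to 3′ with the seed in capitals.
hsa-miR-126-3p: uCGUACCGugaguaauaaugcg
hsa-miR-126-5p: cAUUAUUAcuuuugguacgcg
A transcript that pairs with the whole seed holds the letters CGGUACG for the 3p arm or UAAUAAU for the 5p arm. No transcript sequence of the 6 genes was used here, so the presence of such letters in them was not examined. Mature miR-126 was not measured by these probes, and EGFL7, its host gene, had log2 levels of 0.80 and 0.54 in miR-126 cells, against 0.84 and 0.72 in control cells (log2 difference -0.12, limma adjusted p = 0.878).

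Probes were tested where they named 1 gene and their mean over the 4 arrays lay above the median of all probes' means, which left 16434 Illumina and 23065 Affymetrix probes. Of the 22 member probes, 17 were tested and 5 lay below this filter. Illumina levels are log2(intensity + 16) and, since background remained in the deposited values, changes of dim probes are understated. Affymetrix levels are log2 of the intensity relative to the array median. A level near the filter is therefore near 6.77 on the Illumina arrays and near 0 on the Affymetrix arrays. The miR-126 arrays differed from each other by 0.289 log2 on average over the tested probes, and the control arrays by 0.099. The same gap was 0.184 between the LM2 arrays and 0.239 between the MDA-MB-231 arrays. VIM, CD44, AXL and CAV1, genes that MDA-MB-231 cells are known to express, lay above the filter on both platforms, and the progesterone receptor gene PGR lay below it on both. The estrogen receptor gene ESR1 lay below it on the Illumina arrays and above it on the Affymetrix arrays. ERBB2, read with these genes, lay above it on both platforms. Its mean log2 levels were 9.43 in LM2 and 9.79 in MDA-MB-231, and 2.39 in miR-126 and 2.35 in control cells. Of 14 markers of fibroblasts, endothelium and blood, 7 lay above the filter on each platform, and COL3A1, CDH5, KDR and PTPRC lay below it on both. COL1A1 alone among them was called, with mean log2 levels of 8.81 in LM2 and 6.87 in MDA-MB-231 (limma adjusted p = 0.00163), and its part in the results below was not tested. In total RNA of a culture, fewer cells of a kind and less RNA per cell cannot be told apart.

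In LM2, PITPNC1 was higher than in MDA-MB-231 on both LM2 arrays, but the difference did not pass the test. Probe ILMN_1670638 had deposited intensities of 249.0 and 224.0 on LM2 arrays A and B, against 118.7 and 163.7 on MDA-MB-231 arrays A and B. Both LM2 arrays lay above both MDA-MB-231 arrays, and the MDA-MB-231 arrays differed more from each other than the LM2 arrays did. The log2 levels were 7.98 ± 0.10 in LM2 and 7.28 ± 0.29 in MDA-MB-231 (SD, n = 2 each). The log2 difference was 0.70 (SE 0.18, 95% interval 0.29 to 1.10), or 1.62-fold, with a limma adjusted p of 0.0925. It ranked 250 among the 16434 tested probes by size of rise. Its size depended on which MDA-MB-231 array entered. The difference was 0.49 with array A of MDA-MB-231 left out (adjusted p = 0.188) and 0.90 with array B left out (adjusted p = 0.00422). With LM2 array A or B left out it was 0.62 or 0.77, with adjusted p of 0.465 and 0.346. A fit with 1 array in a group takes the spread from the other group and assumes that the lone array varies like it. With MDA-MB-231 array A or B left out, such fits called 684 or 1054 of the 16434 probes, and with LM2 array A or B left out 52 or 102, where the fit on all 4 arrays called 331.

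The other PITPNC1 probe, ILMN_1738796, is annotated to another RefSeq transcript of the gene and lay just below the filter. Its log2 levels were 6.92 and 6.65 in LM2, against 6.69 and 6.73 in MDA-MB-231. The groups overlapped, and the difference was 0.07, or -0.06 without LM2 array A. The mean of both probes differed by 0.39 log2. Whether the probes differ from each other was not tested.

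Of the small soluble members, PITPNB was lower in LM2 on both arrays and PITPNA was close between the lines, and neither passed. PITPNB had log2 levels of 8.47 and 8.66 in LM2, against 8.81 and 8.79 in MDA-MB-231. Its groups did not overlap, and its difference was -0.24 (SE 0.20, 95% interval -0.67 to 0.20, limma adjusted p = 0.670). With quantile normalization the difference was -0.11. PITPNA had log2 levels of 7.70 and 7.72 in LM2, against 7.77 and 7.54 in MDA-MB-231. The MDA-MB-231 arrays enclosed both LM2 arrays, and the interval of the difference ran from -0.31 to 0.42.

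The large members were also close between LM2 and MDA-MB-231. PITPNM1 had log2 levels of 8.79 and 8.82 in LM2, against 8.69 and 8.81 in MDA-MB-231, a difference of 0.05 with an interval from -0.38 to 0.49. PITPNM2 had 7.17 and 7.33 in LM2, against 7.09 and 7.25 in MDA-MB-231, a difference of 0.08 with an interval from -0.22 to 0.38. In both genes the groups overlapped. PITPNM3 lay below the filter, with 6.63 and 6.72 in LM2, against 6.68 and 6.71 in MDA-MB-231, and its groups overlapped.

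Across the family, none of 5 tested probes was called in LM2 against MDA-MB-231 by limma at an adjusted p under 0.05, where 2.01% of all tested probes were. At an unadjusted p under 0.05, 1 of 5 passed, PITPNC1, against 13.9% of all tested probes. Groups did not overlap for 1 probe higher in LM2, PITPNC1, and 1 lower, PITPNB, where 15.7% and 28.1% of all tested probes lay apart in these directions. The median difference over the 7 member probes was 0.06, beside -0.04 over all tested probes.

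**Figure D1:**
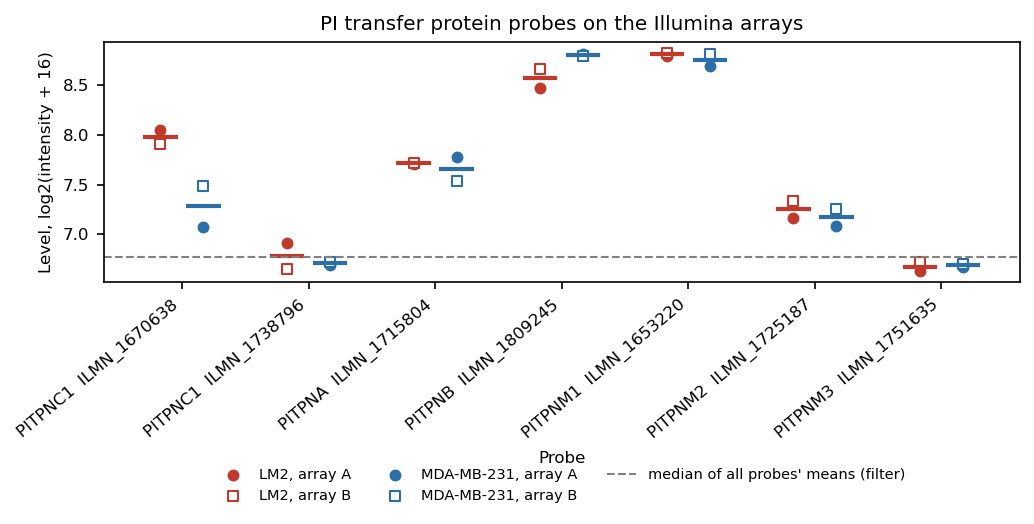
Levels of the 7 member probes on the Illumina arrays, as log2(intensity + 16), for LM2 (red) and MDA-MB-231 (blue); circles are array A, squares array B, bars the mean of the 2 arrays, and the dashed line the filter at 6.77. PITPNC1 probe ILMN_1670638 stands at 8.05 and 7.91 in LM2 and at 7.07 and 7.49 in MDA-MB-231, and the other PITPNC1 probe and PITPNM3 lie near the line.

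With miR-126 over-expressed, every PITPNC1 probe set had a lower mean than in LM2 control cells, by amounts that differed between probe sets, and none passed the test. Probe set 238649_at had deposited intensities of 0.737 and 1.22 on miR-126 arrays A and B, against 1.94 and 2.02 on control arrays A and B. Both miR-126 arrays lay below both control arrays, and array A lay lowest. Its log2 levels were -0.07 ± 0.52 in miR-126 cells and 0.97 ± 0.02 in control cells (SD, n = 2 each). The difference was -1.04 (SE 0.25, 95% interval -1.69 to -0.39, limma adjusted p = 0.496). The miR-126 mean lay below the filter, so the probe set was tested through its control level, and no exact fold is drawn from it. The difference ranked 29 among the 23065 tested probes by size of fall, and 0.143% of them were at least 2-fold lower in miR-126 cells. That rank rests on the same low miR-126 level, so it describes the value and is not used as support.

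The other PITPNC1 probe sets showed smaller differences in the same direction. Probe set 219155_at had log2 levels of 1.71 and 1.99 in miR-126 cells, against 2.11 and 2.20 in control cells, with no overlap and a difference of -0.30 (95% interval -0.69 to 0.08, adjusted p = 0.689). Probe set 1568949_at had 0.91 and 1.19 in miR-126 cells, against 1.23 and 1.32 in control cells, with no overlap and a difference of -0.22 (interval -0.59 to 0.15). Probe set 229414_at had 0.42 and 1.06 in miR-126 cells, against 1.10 and 0.84 in control cells. There the groups overlapped, since miR-126 array B lay between the control arrays, and the difference was -0.22 (interval -0.85 to 0.40). Probe set 227589_at lay below the filter, at -1.17 and -1.23 in miR-126 cells, against -1.06 and -1.17 in control cells, a difference of -0.09. Its groups lay apart by a narrow margin after normalization and overlapped in the deposited intensities, at 0.445 and 0.429 in miR-126 cells, against 0.481 and 0.440 in control cells.

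The tested PITPNC1 probe sets were all lowest on array A of the miR-126 cells. It lay below array B by 0.74 log2 for 238649_at, 0.64 for 229414_at and 0.28 for each of 219155_at and 1568949_at, beside a mean gap of 0.289 over all tested probes. Without array A, the difference was -0.67 for 238649_at, -0.16 for 219155_at, -0.08 for 1568949_at and 0.10 for 229414_at. Without array B it was -1.41, -0.44, -0.36 and -0.54 for the same probe sets in that order. Those fits take the spread from the control arrays alone and assume that the lone miR-126 array varies like them. They called 5779 and 6440 of the 23065 probes, where the fit on all 4 arrays called none. With control array A or B left out, 238649_at was at -1.05 or -1.02, in fits that take the spread from the miR-126 arrays alone.

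PITPNC1 had 4 tested probe sets, and all 4 means were lower in miR-126 cells. Of 624 genes with 4 tested probe sets, 20.7% had all 4 lower. Groups did not overlap for 3 of the 4, where 19.5% of all tested probes were lower in miR-126 cells with no overlap. Both counts include 238649_at, which was tested through its control level, so they describe the values and are not used as support. The probe sets of a gene share the same RNA on the same arrays and are not replicates. How 238649_at differs from the other sets in the part of the transcript it reads was not examined, and the difference between probe sets was not tested.

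**Figure D2:**
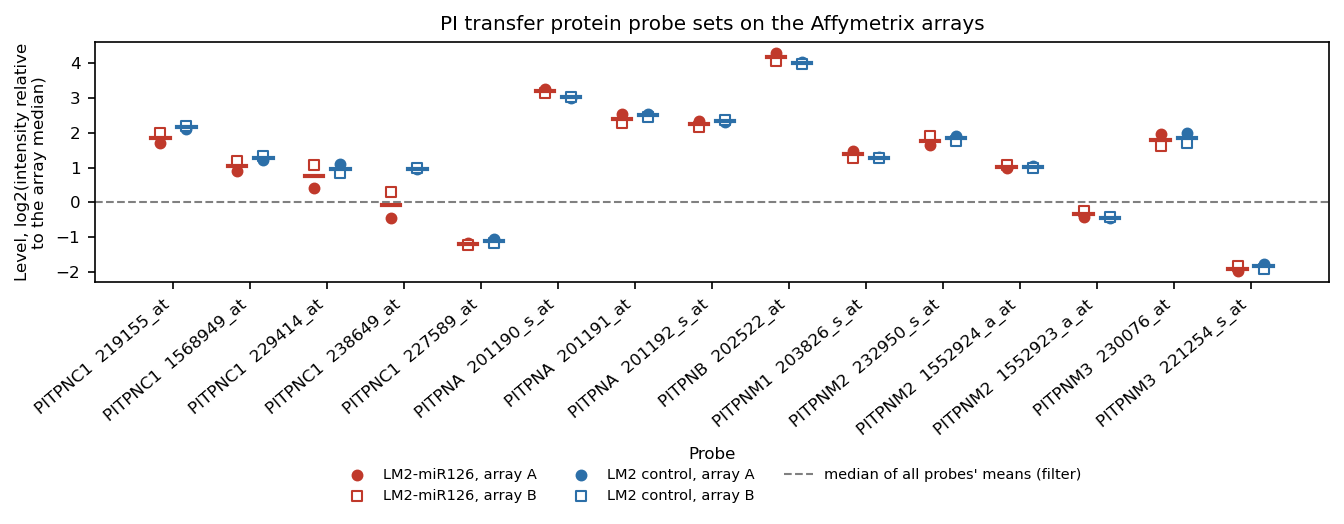
Levels of the 15 member probe sets on the Affymetrix arrays, as log2 of the intensity relative to the array median, for LM2-miR126 (red) and LM2 control (blue); circles are array A, squares array B, bars the mean of the 2 arrays, and the dashed line the filter. PITPNC1 238649_at stands at -0.44 and 0.30 in miR-126 cells and at 0.95 and 0.98 in control cells, and the sets of the other genes differ by 0.194 log2 or less between group means.

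**Figure D3:**
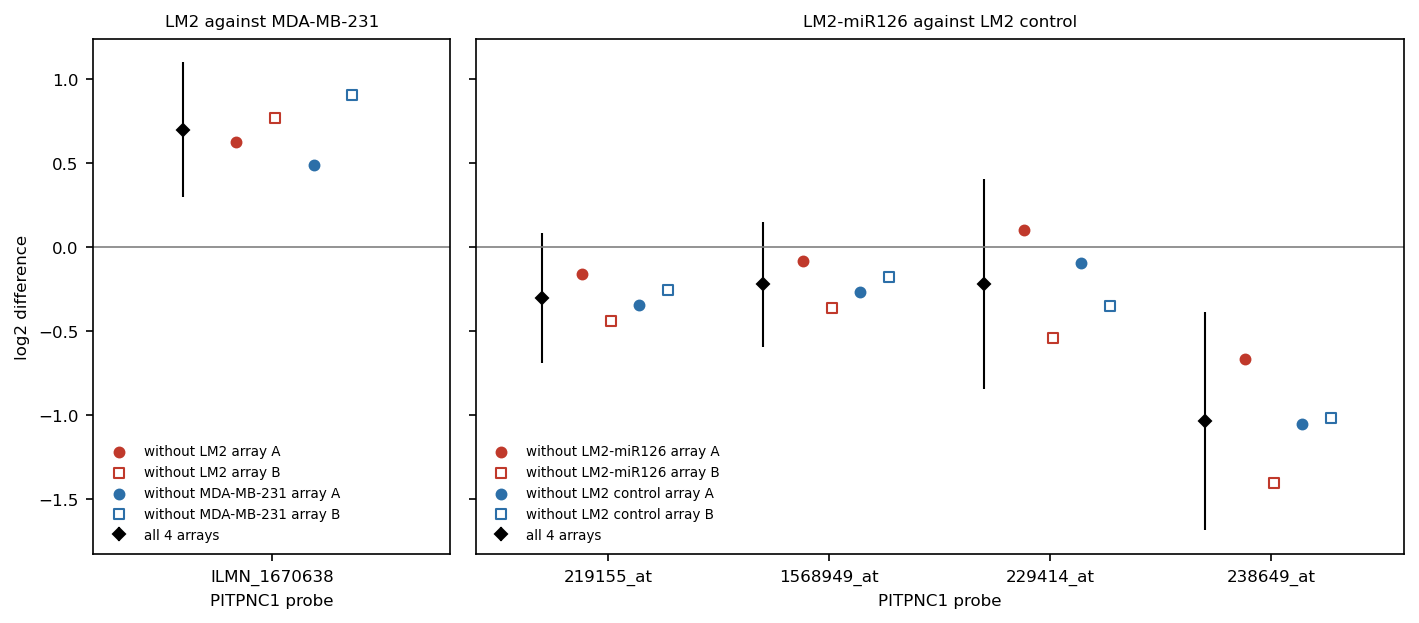
The log2 difference of the tested PITPNC1 probes, with all 4 arrays (black diamond, bar the 95% interval) and with each array left out in turn, in LM2 against MDA-MB-231 on the left and LM2-miR126 against LM2 control on the right. The Illumina probe stays between 0.49 and 0.90, 238649_at between -1.41 and -0.67, and 229414_at crosses 0 without miR-126 array A.

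Of the small soluble members, PITPNB had a higher mean in miR-126 cells, PITPNA had 1 higher and 2 lower probe sets, and none passed the test. PITPNB, read by 202522_at, had log2 levels of 4.29 and 4.06 in miR-126 cells, against 4.03 and 3.99 in control cells. Its groups lay apart after normalization but overlapped in the deposited intensities, at 20.9 and 15.4 in miR-126 cells, against 16.1 and 16.3 in control cells. The difference was 0.16 (SE 0.12, 95% interval -0.15 to 0.47, limma adjusted p = 0.782). PITPNA was read by 3 probe sets. Probe set 201190_s_at had 3.27 and 3.15 in miR-126 cells, against 3.01 and 3.02 in control cells, a difference of 0.19 (interval -0.11 to 0.50, adjusted p = 0.737). Its groups too overlapped in the deposited intensities. Without miR-126 array A or B, 201190_s_at was at 0.13 or 0.26, and PITPNB at 0.05 or 0.27. Those fits take the spread from the control arrays alone. The sets 201191_at and 201192_s_at each stood at -0.09, with overlapping groups and intervals from -0.47 to 0.29 and from -0.44 to 0.26.

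The large members differed little between miR-126 and control cells. PITPNM1 had log2 levels of 1.48 and 1.29 in miR-126 cells, against 1.30 and 1.26 in control cells, with overlapping groups and a difference of 0.10 (95% interval -0.23 to 0.44). PITPNM2 probe set 232950_s_at had 1.64 and 1.91 in miR-126 cells, against 1.91 and 1.76 in control cells, a difference of -0.06 (interval -0.46 to 0.33). Its set 1552924_a_at had 0.98 and 1.07 in miR-126 cells, against 1.05 and 0.99 in control cells, with an interval from -0.30 to 0.29. Both sets overlapped after normalization, and in the deposited intensities both miR-126 arrays lay below both control arrays. PITPNM2 set 1552923_a_at, below the filter, differed by 0.10. PITPNM3 probe set 230076_at had 1.95 and 1.62 in miR-126 cells, against 2.002 and 1.70 in control cells. Array A was the higher in both groups, and the difference was -0.06 (interval -0.54 to 0.41). PITPNM3 set 221254_s_at lay below the filter and differed by -0.07.

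Of the 12 tested member probe sets, limma called none at an adjusted p under 0.05, and 0% of all tested probes were called. At an unadjusted p under 0.05, 1 of 12 passed, 238649_at, against 8.09% of all tested probes. That set was tested through its control level, so this count describes the values and is not used as support. Higher in miR-126 cells with no overlap were 2 of 12, one set each of PITPNA and PITPNB, against 20.4% of all tested probes. The median difference over the 15 member probe sets was -0.07, beside 0.01 over all tested probes.

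**Figure D4:**
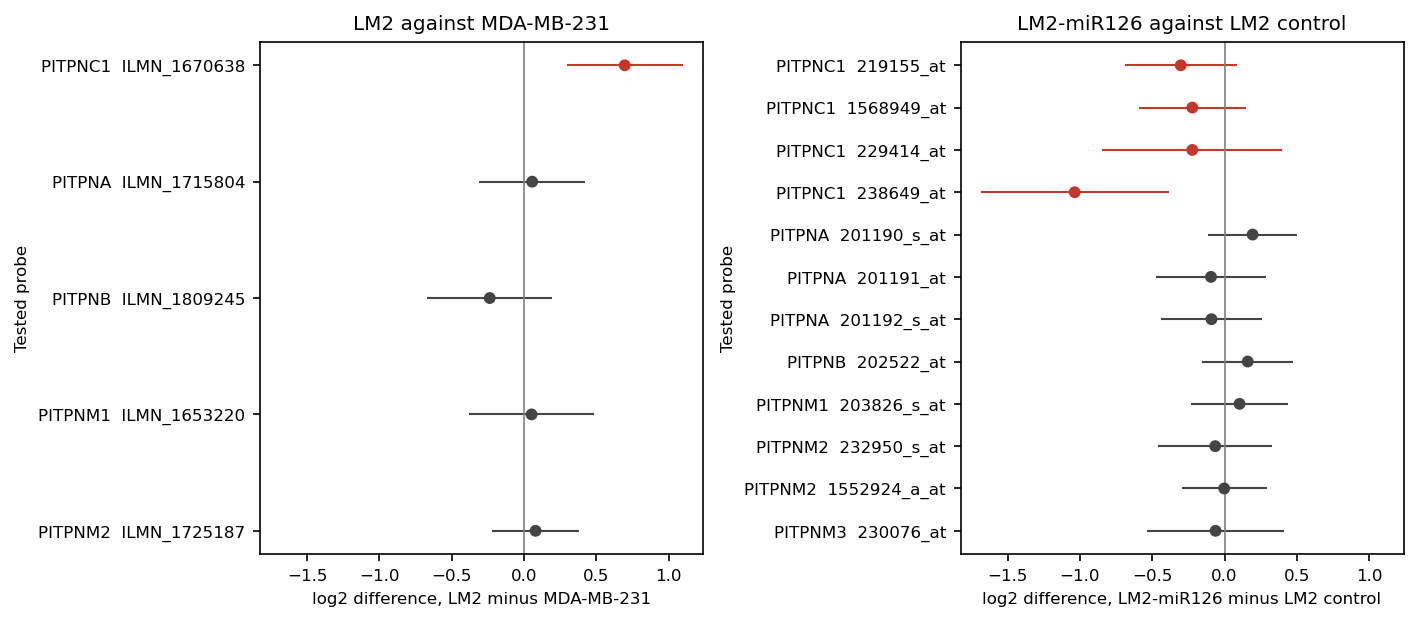
The log2 difference of each tested member probe with its 95% interval from limma, LM2 minus MDA-MB-231 on the left and LM2-miR126 minus LM2 control on the right, with PITPNC1 in red. The intervals of ILMN_1670638 (0.29 to 1.10) and 238649_at (-1.69 to -0.39) lie off 0 before adjustment over all probes, and those of the other tested probes span it. Probe set 238649_at was tested through its control level.

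Genes around these carriers were read from 7 lists of 141 genes, namely enzymes of phosphatidylinositol synthesis, kinases, phosphatases, phospholipases C, Golgi PI4P effectors, binding partners of the family and other lipid transfer proteins, each gene by its probe of highest mean. In LM2 against MDA-MB-231, 108 of these genes were tested, 2 rose and none fell, where 2.22% of all genes were called in either direction. PLCB1, a phospholipase C that cleaves the phosphoinositide PI(4,5)P2, had log2 levels of 7.84 and 7.98 in LM2, against 6.60 and 6.87 in MDA-MB-231. It was 2.27-fold higher (log2 difference 1.18, SE 0.15, limma adjusted p = 0.00306). The MDA-MB-231 mean of 6.73 lay below the filter, so the probe was tested through its LM2 level, and the fold on this scale is understated by remaining background. Its other probe, below the filter, differed by 0.10. OSBPL5, a lipid transfer protein of the oxysterol-binding family at contacts of the endoplasmic reticulum with the plasma membrane, had 9.81 and 9.36 in LM2, against 8.32 and 7.85 in MDA-MB-231. It was 2.82-fold higher (log2 difference 1.50, SE 0.24, adjusted p = 0.0102), and its other probe differed by 1.49 (adjusted p = 0.00385). The call of the first OSBPL5 probe was lost without LM2 array A (1.27, adjusted p = 0.151) and with a variance prior without a trend (adjusted p = 0.0595).

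None of the genes around PITPNC1 at the Golgi was called in LM2 against MDA-MB-231. Of 15 tested genes bound to Golgi PI4P or acting with it, 4 were higher and 11 lower, with a median of -0.17. Among all tested genes, 7273 of 12490 had the lower mean in LM2, and the median was -0.04. The gene of smallest p there was MYO18A, the myosin that pulls on Golgi membrane through GOLPH3, with log2 levels of 7.66 and 7.77 in LM2, against 8.30 and 8.50 in MDA-MB-231 (difference -0.69, adjusted p = 0.0943). With array A of MDA-MB-231 left out, a fit whose spread comes from the LM2 arrays alone, its adjusted p was 0.0302. Its other probe, below the filter, differed by 0.01. GOLPH3 and RAB1B, named here as the known Golgi partners of PITPNC1 after their values were seen, did not pass either. GOLPH3 had log2 levels of 9.41 and 9.18 in LM2, against 10.03 and 9.97 in MDA-MB-231 (difference -0.71, limma adjusted p = 0.153). RAB1B had 7.81 and 7.70 in LM2, against 7.71 and 8.15 in MDA-MB-231, where the groups overlapped (difference -0.17, adjusted p = 0.772). All 11 tested binding partners of the family had lower means in LM2, with a median of -0.22 and none called, beside the 7273 of 12490 lower among all genes. VAPA, the endoplasmic reticulum anchor that binds the PITPNM proteins, stood at 9.27 and 9.17 in LM2, against 10.03 and 9.97 in MDA-MB-231 (difference -0.78, adjusted p = 0.106). Its 2 other probes, below the filter, differed by -0.02 and 0.18. With quantile normalization the tested VAPA probe was at -0.66. How many of the 11 partners stay lower under that scaling was not examined.

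The lists of lipid enzymes showed no call other than PLCB1 in this comparison. Their genes of smallest p were INPP4B, a phosphoinositide phosphatase (-0.78, adjusted p = 0.127), DGKQ, a diacylglycerol kinase (-0.46, adjusted p = 0.316), and PIK3R4, the regulatory subunit of the lipid kinase PIK3C3 (0.33, adjusted p = 0.233). INPP4B was at -0.53 and -1.04 without LM2 array B and A, and its adjusted p was 0.0496 with array A of MDA-MB-231 left out, again with the spread of the LM2 arrays alone. At an unadjusted p under 0.05, 15 of the 108 genes passed, against 14.3% of all genes.

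In miR-126 against control cells, none of 116 tested genes of these lists was called, and neither was any of all 12923 tested genes. At an unadjusted p under 0.05, 7 passed, against 7.39% of all genes, and the list medians lay between -0.07 and 0.03. PI4K2A, a kinase that makes PI4P at the trans-Golgi and endosomes, had log2 levels of 2.64 and 2.50 in miR-126 cells, against 3.13 and 3.01 in control cells (difference -0.50, adjusted p = 0.496). Its 2 other probe sets stood at -0.23 and -0.31. SACM1L, the phosphatase that removes this phosphate again, had 3.70 and 3.72 in miR-126 cells, against 3.41 and 3.42 in control cells (0.29, adjusted p = 0.588). RAB1B, the small GTPase that PITPNC1 binds at the Golgi, had 4.50 and 4.43 in miR-126 cells, against 4.14 and 4.10 in control cells (0.34, adjusted p = 0.525). GOLPH3 had 4.57 and 4.57 in miR-126 cells, against 4.60 and 4.55 in control cells (limma adjusted p = 0.992).

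The genes of smallest p in the other lists were the adaptor SFN (-0.31, adjusted p = 0.512), the oxysterol-binding family member OSBPL3 (-0.48, adjusted p = 0.496), PLCE1, a phospholipase C (-0.63, adjusted p = 0.538), and DGKH, a diacylglycerol kinase (0.42, adjusted p = 0.694). SFN was lower on all 3 of its probe sets and OSBPL3 on both of its own. PLCE1 was at -0.90 and -0.37 without miR-126 array A and B, and DGKH at 0.13 and 0.71.

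**Figure D5:**
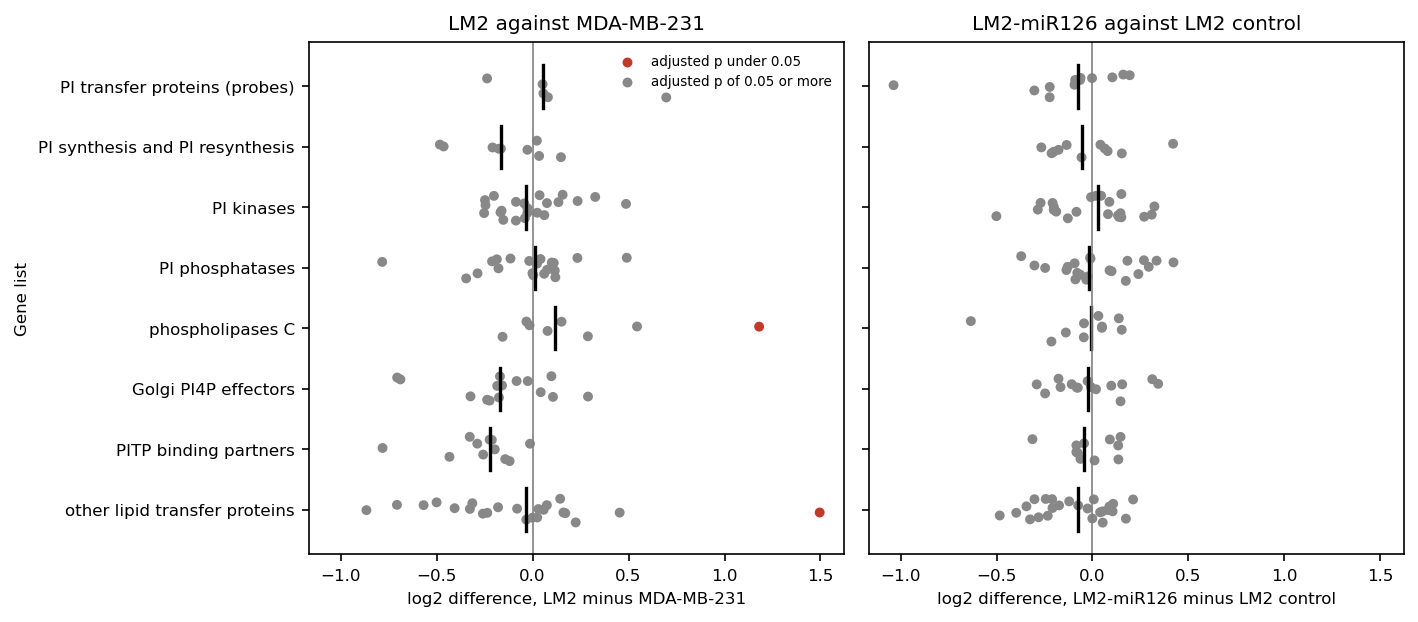
The log2 difference of every tested gene of 7 lists around phosphoinositide metabolism, with the tested member probes in the top row, LM2 minus MDA-MB-231 on the left and LM2-miR126 minus LM2 control on the right; each point is a gene, the bar is the list median, and red marks an adjusted p under 0.05. PLCB1 at 1.18 and OSBPL5 at 1.50 are the red points, and the point at -1.04 in the top row on the right is PITPNC1 238649_at.

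Genes whose levels ran most like those of PITPNC1 were found over all 8 arrays among 9772 genes above the filter on both platforms. Levels were centred within each table, PITPNC1 was read by ILMN_1670638 and 219155_at, and likeness was the root mean square difference over the arrays. The closest were S100A6 (0.0724 log2), SELENOK (0.0773), SASH1 (0.0815), WDR59 (0.0819) and NHERF1 (0.0845), beside a median of 0.347 over all genes. They were higher in LM2 than in MDA-MB-231 by 0.51 to 0.82 log2 and lower in miR-126 than in control cells by 0.20 to 0.34 log2, which the choice fixes. The order depends on the probe set, since 0 of the 5 remained when 238649_at stood for PITPNC1 on the Affymetrix arrays, 1 with 229414_at and 4 with 1568949_at.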

How the data were processed

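Total RNA of 8 samples was labelled with biotin by the standard Illumina or Affymetrix procedure, per the labels' protocols. The authors deposited 1 table of intensity values per platform. For the software behind these values, the labels name none. The deposited Illumina intensities share a median of 94.4 on each array, with lowest values from 43.2 to 46.5. The deposited Affymetrix intensities have a median of 1 on each array. No detection p-values were used here. The number of arrays limits the precision.

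Samples were grouped by title, 2 a group. Probes were named by the platform annotation, with symbols updated by Entrez identifier (28059 of 28098 Illumina and 41037 of 41091 Affymetrix probes of 1 gene matched). Illumina intensities were taken as log2(value + 16) on the deposited scale, since the quartiles of the arrays lay within 0.0493 log2 of each other (limit 0.1). Affymetrix intensities were taken as log2 and quantile-normalized, since theirs spread over 0.164 log2. Each table was fitted probe by probe over all tested probes with limma 3.58.1 in R 4.3.3 (lmFit, then eBayes with trend). Tests were two-sided, p-values were adjusted over all tested probes by Benjamini-Hochberg, and those under 0.05 were called. With 2 arrays against 2, the smallest p of an exact permutation is 0.3333. The fit was run on simulated data with the same spread in both groups. The miR-126 and control arrays differ in spread (mean gaps of 0.289 and 0.099 log2), so that run cannot test the fit for them. Figures used matplotlib 3.10.9.

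The members and lists were chosen with earlier results of these data known. Named genes were all members, up to 4 called genes per list or else its gene of smallest p, EGFL7, and the 5 genes most like PITPNC1. Alternatives covered scaling, pseudocount or floor, filter, variance prior, probe rule, replicate letter as a block and each array left out. List genes without a probe in these tables were not analysed here.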

Additional observations from a re-analysis of the deposited data

How the results depend on the processing

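PITPNC1 probe ILMN_1670638 kept its direction in LM2 against MDA-MB-231 under every setting run, between 0.39 with the mean of its probes and 0.90. The lower means of 219155_at, 1568949_at and 238649_at in miR-126 cells did so too. The filter, the variance prior, the choice of 1 probe per gene and the replicate block cannot change a probe's difference. Only scaling, pseudocount or floor, the mean of a gene's probes and left-out arrays could have turned a direction. With an array left out, the member probes called ranged from 0 to 1 in LM2 against MDA-MB-231 (1 without MDA-MB-231 array B) and from 0 to 6 in miR-126 against control cells (1 without miR-126 array A, 6 without array B). The list genes called ranged from 1 to 6 and from 0 to 40, and all probes called from 52 to 1054 and from 0 to 6440. A variance prior without a trend left 1 list gene and 118 probes called in LM2 against MDA-MB-231, and the mean of a gene's probes 180 genes.

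The letters A and B are not stated to pair samples, and same-letter deviations correlated at 0.115 on the Illumina and 0.104 on the Affymetrix arrays. With the replicate letter as a block, 1 member probe (PITPNC1, adjusted p = 0.00872), 6 list genes and 951 probes were called in LM2 against MDA-MB-231, and 0 member probes and 44 probes in miR-126 against control cells. The letters may mark no pairing, so calls made there were not used.

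Of 240 repeats of single member values, 17 changed sign, all of values not called, and 16 of these left out an array. The 240 include repeats with another filter, variance prior or block, which cannot change a difference, so the 17 give no rate of stability. The ranges with an array left out were -0.0607 to 0.173 for PITPNA, -0.00853 to 0.113 for PITPNM1 and -0.00401 to 0.163 for PITPNM2 on the Illumina arrays. On the Affymetrix arrays they were -0.54 to 0.10 for PITPNC1 229414_at, -0.231 to 0.0435 for PITPNA 201191_at, -0.187 to 0.0067 for PITPNA 201192_s_at, -0.202 to 0.0727 for PITPNM2 232950_s_at, -0.0471 to 0.0428 for PITPNM2 1552924_a_at and -0.23 to 0.10 for PITPNM3 230076_at. Of the probes below the filter, the ranges were -0.0603 to 0.208 for PITPNC1 ILMN_1738796, -0.0620 to 0.0281 for PITPNM3 ILMN_1751635 and -0.149 to 0.00432 for PITPNM3 221254_s_at. The mean of its probes put PITPNM2 at 0.0118. The cause of these changes was not tested. The Illumina probes of PITPNM3 and of the second PITPNC1 transcript lay near the remaining background, and whether this bears on their changes was not tested. Choices of the PITPNC1 probe set and scaling for likeness were added after the data were seen, and 4 or 5 of the 5 genes remained under each scaling.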
